A study of Mus musculus with 2 samples.

Results

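The genes described here are 34 genes known to be induced by interferon gamma or to control that response, out of 32285 genes counted. They were taken by name, whatever their level, but with earlier results of these data known. They comprise 15 GTPases, 5 subunits of the immunoproteasome and its PA28 cap, 3 peptide loading genes, 8 class I chain genes and 3 regulators. They were measured in single CD8+ tumor-infiltrating lymphocytes (TIL) from B16 F0 tumors, a transplanted mouse melanoma line, in male C57BL/6 mice at 16 weeks of age. CD8+ cells were enriched on beads and then sorted. There was 1 library from lean mice on normal chow and 1 from mice made obese by a western diet, and nothing else separates the groups by label. How many mice gave each library was not stated in the sources used here.

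With 1 library per diet, the diet and the library cannot be told apart and no test between diets was possible. Each level is given as CPM, counts per 1000000, which is the number of unique molecular identifiers (UMIs) of a gene, added up over cells and scaled to the UMI total of the same cells. Differences are given as log2 of the obese level over the lean level. Intervals are 95% intervals for the counting of molecules alone, or of cells where a share of cells is given. Intervals for molecules do not cover the spread between cells of a library, and neither kind covers differences between mice or between library preparations. A log2 difference of 0.322 or more in either direction, among genes with 10 CPM or more in either library, is called past the fold, as a description of size.

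Interferon gamma, made by T cells and natural killer cells, binds a receptor that signals through the kinases Jak1 and Jak2. Induced genes are switched on through gamma-activated sequences (GAS) and interferon-stimulated response elements (ISRE), and Irf1 binds the latter. The products include the guanylate-binding proteins (Gbp) and the immunity-related GTPases (IRG), which attack the membranes around intracellular microbes, and the set of proteins that cut, transport and display peptides on class I molecules. Measured in sorted T cells, these RNAs describe the T cells and not what the tumor cells display.

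The sequences upstream of the members show which of these elements lie next to the genes. Windows from 250 bases before to 50 bases after the start site (RefSeq, GRCm38.p6, the same assembly as mm10) were found for 27 of the 34 genes. The motifs searched on both strands were GAS (TTCNNNGAA), the 2 spacings of the ISRE core (GAAANNGAA and GAANNGAAA), kappa B (GGGNNTTCC) and CCAAT. The ISRE spacings can overlap each other and GAS. An ISRE core was present for 18 of the 27 members and for 16.8% of 27025 genes with such a window. GAS was present for 9 of 27 members against 9.55% of genes, kappa B for 5 of 27 against 6.58%, and CCAAT for 15 of 27 against 41.1%. A match describes the letters in the window and does not show binding.

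The matches were divided by group. Among the GTPases an ISRE core was found in 9 of 10 windows and GAS in 6 of 10. Among the class I chains the ISRE core and CCAAT were each found in 8 of 8, kappa B in 5 of 8 and GAS in 0 of 8. Among the 5 immunoproteasome and PA28 genes GAS was found upstream of Psmb8 and an ISRE core downstream of the Psme1 start site. Both regulators with a window, Irf1 and Irf8, had GAS and no ISRE core. Neither Tap1 nor Tapbp had either.

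GTPase windows of 200 bases, ending at the base before the start site, show the GAS and ISRE letters in capitals. They lie at chr11:58199356-58199555 (plus strand), chr11:48992247-48992446 (minus strand) and chr3:142620463-142620662 (plus strand).
Igtp: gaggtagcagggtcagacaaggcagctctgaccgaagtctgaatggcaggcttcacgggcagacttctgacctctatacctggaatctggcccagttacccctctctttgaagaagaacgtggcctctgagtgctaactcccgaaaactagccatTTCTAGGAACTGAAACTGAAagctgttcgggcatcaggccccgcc
Tgtp1: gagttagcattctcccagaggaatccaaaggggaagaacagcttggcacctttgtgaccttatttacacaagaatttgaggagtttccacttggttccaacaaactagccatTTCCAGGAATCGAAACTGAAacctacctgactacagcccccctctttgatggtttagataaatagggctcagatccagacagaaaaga
Gbp2: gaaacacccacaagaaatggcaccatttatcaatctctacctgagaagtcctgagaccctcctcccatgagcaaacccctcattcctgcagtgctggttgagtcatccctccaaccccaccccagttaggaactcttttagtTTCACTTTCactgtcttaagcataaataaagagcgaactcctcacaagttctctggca
In Igtp and Tgtp1 the GAS and both ISRE spacings run into each other within 20 letters. The matches had the same order and spacing, over 20 letters, in Irgm2 and Tgtp2. Gbp2 carried a single ISRE core on the opposite strand.

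The class I windows are shown with kappa B and ISRE matches in capitals, because they share an arrangement that the GTPases lack. They lie at chr17:34000334-34000533 (minus strand), chr17:35438955-35439154 (plus strand) and chr2:122147487-122147686 (plus strand).
H2-K1: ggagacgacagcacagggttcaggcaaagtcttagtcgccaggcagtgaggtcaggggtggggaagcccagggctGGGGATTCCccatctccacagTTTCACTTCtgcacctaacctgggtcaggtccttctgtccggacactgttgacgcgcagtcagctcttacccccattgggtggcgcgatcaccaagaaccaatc
H2-Q7: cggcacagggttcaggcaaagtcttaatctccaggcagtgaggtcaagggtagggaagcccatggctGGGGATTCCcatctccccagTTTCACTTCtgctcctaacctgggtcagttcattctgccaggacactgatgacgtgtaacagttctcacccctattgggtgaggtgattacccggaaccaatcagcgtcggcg
B2m: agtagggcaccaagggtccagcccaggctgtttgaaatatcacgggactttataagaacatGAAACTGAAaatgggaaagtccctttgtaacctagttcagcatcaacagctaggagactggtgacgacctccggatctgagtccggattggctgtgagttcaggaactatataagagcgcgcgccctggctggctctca
H2-K1 and H2-Q7, from the K and Q ends of the locus, have a kappa B match followed closely by an ISRE core, as do H2-D1, H2-Q4 and H2-Q6. B2m, on another chromosome, has the ISRE core alone.

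Psmb8 and the regulators carry GAS without an ISRE core, shown in capitals. Their windows lie at chr17:34197995-34198194 (plus strand), chr11:53769814-53770013 (plus strand) and chr8:120736158-120736357 (plus strand).
Psmb8: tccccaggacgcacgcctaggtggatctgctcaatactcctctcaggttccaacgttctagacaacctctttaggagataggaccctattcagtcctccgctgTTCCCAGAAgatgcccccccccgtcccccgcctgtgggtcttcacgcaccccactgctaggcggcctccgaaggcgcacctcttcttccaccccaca
Irf1: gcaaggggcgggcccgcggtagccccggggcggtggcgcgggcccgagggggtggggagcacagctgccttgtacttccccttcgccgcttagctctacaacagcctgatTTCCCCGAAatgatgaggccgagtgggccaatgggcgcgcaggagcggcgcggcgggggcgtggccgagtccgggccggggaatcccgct
Irf8: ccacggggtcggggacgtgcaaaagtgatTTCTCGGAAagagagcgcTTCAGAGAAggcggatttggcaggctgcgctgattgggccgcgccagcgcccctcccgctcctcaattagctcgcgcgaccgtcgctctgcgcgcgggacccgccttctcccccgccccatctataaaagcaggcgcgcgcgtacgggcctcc
Irf8 has a pair of GAS matches, on either side of a short spacer. Psmb9 and Tap1 are transcribed away from each other from start sites with 225 bases between them, and their windows share 275 bases (chr17:34187306-34187580).

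**Figure D1:**
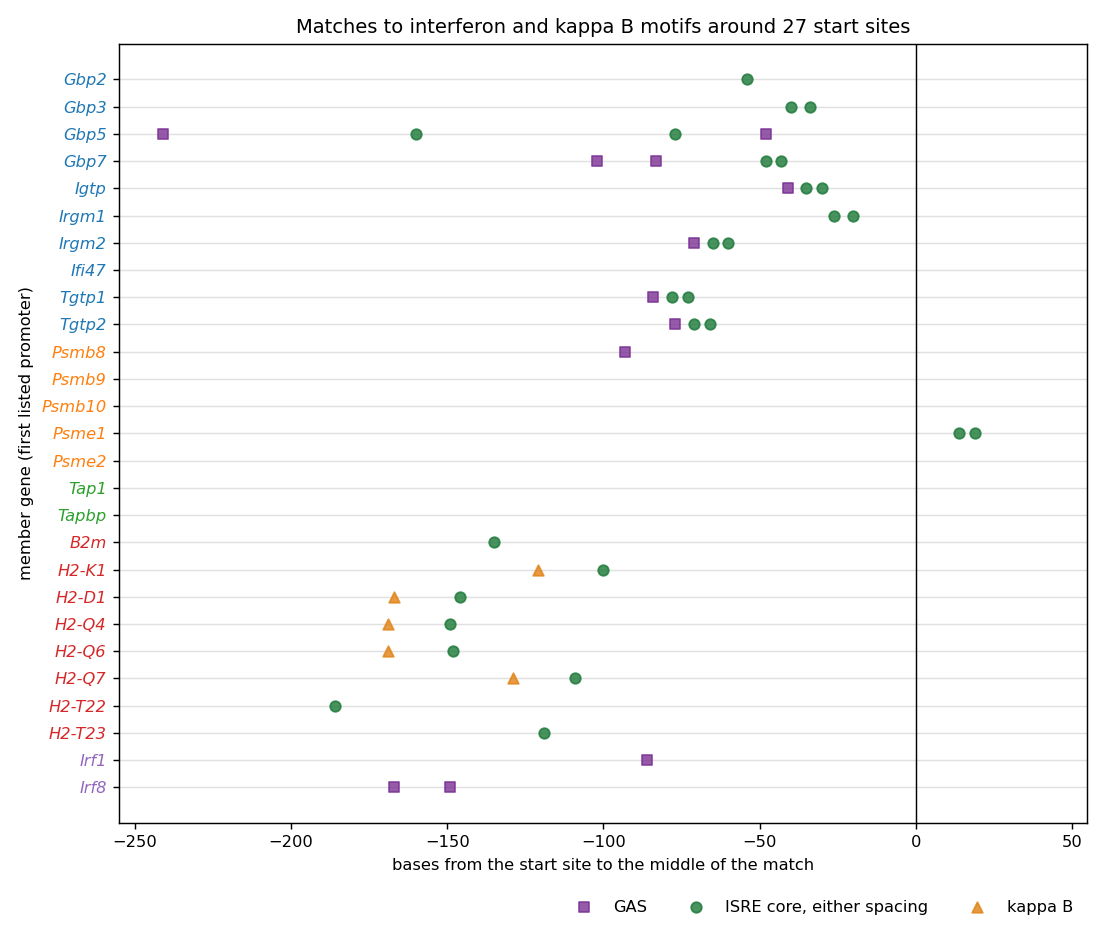
Positions of GAS (squares), ISRE core (circles) and kappa B (triangles) matches from 250 bases before to 50 bases after the start site, 1 row for each of 27 genes. The horizontal axis is the distance in bases from the start site to the middle of the match, and GAS and ISRE matches sit side by side in Igtp, Irgm2, Tgtp1 and Tgtp2.

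The lean library kept 2456 cells with 27815785 UMIs and the obese library 2289 cells with 28705830 UMIs, with medians of 7958 and 9103 UMIs and of 2.10% and 2.64% mitochondrial UMIs per cell. The 2 libraries shared 2 cell barcodes among kept cells. The labelled cell type was borne out by its markers, as Cd3e, Cd3d, Cd8a, Cd8b1 and Trac summed to 3983 CPM in the lean and 3533 CPM in the obese library with none at 0. Markers of other cells were low: 5 melanoma genes summed to 0.683 and 1.01 CPM, 4 B cell genes to 3.27 and 4.22, 2 CD4 T cell genes to 3.20 and 2.75, and 7 myeloid genes to 23.9 and 22.8. The 8 dendritic genes summed to 334.7 and 429.8 CPM, of which Bst2, an interferon-induced gene, was 228.7 and 197.4. In the 9 and 21 cells of cluster 5 they stood at 6583 and 16437 CPM, and in clusters 0 to 3 they were lower in the obese library (202.5 to 495.6 CPM over both libraries). Hemoglobin RNA was at 0 in the lean library, and nearly all of it in the obese library came from 1 cell. Clusters were made without the 34 members and 49 related genes, and 4 held over 100 cells of each library and could be named from markers. Cluster 0 (462 lean and 725 obese cells) was called interferon-stimulated-like from its leading genes Ifit1, Ifit3, Ifit3b and Isg15. The name covers only part of it, as memory-like Ccl5 cell markers stood at 15144 and 14902 CPM, the highest of any cluster. With cells thinned to 2000 UMIs, 232 lean and 432 obese cells there had no type I interferon marker UMI, against 228 and 287 with one. Cluster 1 was proliferating-like (Birc5, Pclaf, Stmn1, Cdk1; 479 and 576). Cluster 2 was naive- or memory-like (Lef1, with its 7 markers at 2812 and 3310.4 CPM in sum; 575 and 418). Cluster 3 was effector-like (Gzmf, Gzmc, with Gzmb and other killing genes among its 10 markers; 620 and 302). Cluster 4 (311 and 247 cells) was shallow and stayed unnamed, and cluster 5 (9 and 21 cells) was dendritic-like.

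Across all kept cells, 28 of the 33 members with 10 CPM or more were lower in the obese library and 5 were higher. The median difference was -0.19 on the log2 scale, against 0.035 for all 7064 genes at that level. The members were chosen with earlier results of these data known, so this does not compare a list chosen apart from the data. Past the fold, 5 members were lower (Irf8, Igtp, Gbp4, Tgtp1 and Gbp6) and 0 were higher. This count was 12 over all deposited cells and 3 with related genes summed. The sums were Tgtp1 with Tgtp2, H2-Q6 with H2-Q7, H2-K1 with H2-D1, and Gbp6 with Gbp8 and Gbp9. Not all of these are near-identical, as 2.95% of the 60-base words in the last 500 bases of Gbp8 occur in another gene. Of all genes in the kept cells, 4.11% were past the fold lower and 8.13% higher. That share was not computed for all deposited cells or with related genes summed, so the counts of 12 and 3 have no background beside them. The 5 that were higher were all class I chains. The groups therefore differed in direction and size, with the 14 GTPases counted lower throughout and the class I chains near 0 in sum.

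**Figure D2:**
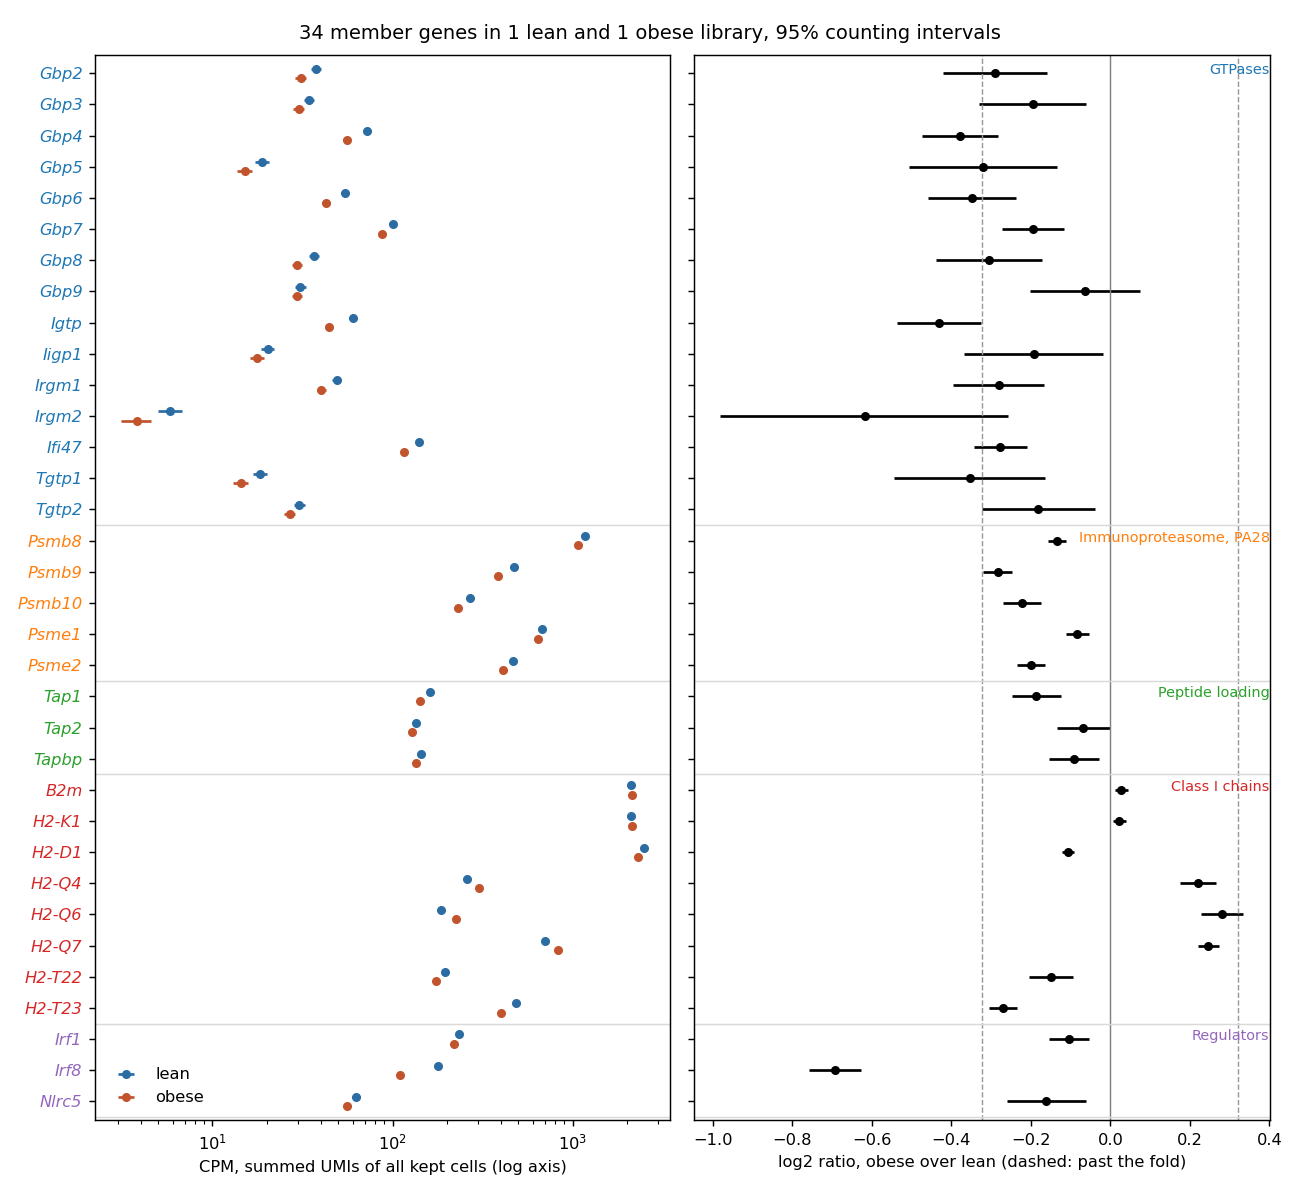
Left, CPM of each of the 34 genes in the lean (blue) and obese (orange) library over all kept cells, on a log axis; right, log2 of obese over lean, with 95% counting intervals as bars and dashed lines at 0.322 on either side of 0. The GTPases lie left of 0, Irf8 lies farthest left at -0.69, and H2-Q4, H2-Q6 and H2-Q7 lie farthest right.

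The 15 GTPases summed to 709.7 CPM in the lean library and 584.5 CPM in the obese library (log2 -0.28, -0.31 to -0.25). All 14 with 10 CPM or more were lower in the obese library, 13 of them with an interval below 0. The share of all genes with an interval below 0 was not computed, so counts by interval have no background beside them. The intervals of the sums (699.8 to 719.6 and 575.7 to 593.4 CPM) did not overlap. The 8 Gbp genes went from 385.4 to 321.1 CPM (log2 -0.26) and the 7 IRG genes from 324.2 to 263.4 CPM (log2 -0.30), so the families stood at a similar distance. The Gbp genes lie in 2 clusters, Gbp2, Gbp3, Gbp5 and Gbp7 on chromosome 3 (142493978 to 142638008) and Gbp4, Gbp6, Gbp8 and Gbp9 on chromosome 5 (105014150 to 105293698). The chromosome 3 genes differed by -0.23 and the chromosome 5 genes by -0.30 in sum. The spans of Gbp4, Gbp8 and Gbp9 overlap on the same strand.

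Among the IRG genes, Igtp (Irgm3, a GTPase of endoplasmic reticulum and lipid droplet membranes; chr11:58199556-58207591) was at 59.97 CPM in the lean and 44.5 CPM in the obese library (log2 -0.43, -0.54 to -0.32). Ifi47 (Irg-47; chr11:49076587-49096974) was at 140.5 and 116.0 CPM (log2 -0.28, -0.34 to -0.21). Irgm1, a regulator of the other IRG proteins and of autophagy (chr11:48861968-48871683), was at 49.0 and 40.3 CPM (log2 -0.28, -0.40 to -0.17). Each of these intervals lay below 0, and only Igtp was past the fold. Tgtp1 and Tgtp2 are near-identical GTPases (chr11:48985327-48994172 and chr11:49057194-49064206). Each of the 60-base words in the last 500 bases of Tgtp2 also occurs in Tgtp1, so their split is uncertain. Tgtp1 was at 18.3 and 14.3 CPM and Tgtp2 at 30.4 and 26.8 CPM, and the pair summed gave -0.24 (-0.36 to -0.13). Iigp1 (Irga6, which coats parasite vacuoles; chr18:60376027-60392634) was at 20.3 and 17.7 CPM (log2 -0.19, -0.37 to -0.02). Irgm2 (chr11:58199618-58222782), which overlaps most of Igtp on the same strand, was scarce, at 5.82 and 3.797 CPM, and was not counted.

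Among the Gbp genes, Gbp4 was at 72.3 CPM in the lean and 55.6 CPM in the obese library (log2 -0.38, -0.47 to -0.28). Gbp6 was at 54.4 and 42.7 CPM (log2 -0.35, -0.46 to -0.24), but 74.6% of the words at its end also occur in Gbp10. These were the 2 Gbp genes past the fold. Gbp2, which helps to open microbe vacuoles, was at 37.7 and 30.8 CPM (log2 -0.29), and Gbp5, known for its part in inflammasome assembly, at 18.9 and 15.1 CPM (log2 -0.320, just short of the fold). Gbp7 was at 100.5 and 87.7 CPM (log2 -0.20), Gbp3 at 34.5 and 30.1 CPM (log2 -0.20) and Gbp8 at 36.5 and 29.5 CPM (log2 -0.30). Gbp9 was the exception, at 30.8 and 29.5 CPM with an interval that held 0 (log2 -0.06, -0.20 to 0.07).

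Among clusters 0 to 3, each of the 15 GTPases had its highest level in cluster 0. In the shallow, unnamed cluster 4 the 8 Gbp genes stood higher, at 1077 and 771.4 CPM against 737.0 and 554.6 CPM in cluster 0 (lean and obese). The 7 IRG genes stood lower there, at 245.5 and 216.2 CPM against 713.4 and 503.0 CPM. The clustering left out the members but kept the type I interferon genes that cluster 0 was named from. Those genes overlap the GTPases in what induces them, so the high level in cluster 0 is not independent of its naming. There the GTPase sum was 1450.3 CPM in the lean and 1058 CPM in the obese library (log2 -0.46, -0.52 to -0.40), and 15 of 15 genes were lower in the obese library. Past the fold, 10 GTPases were lower in cluster 0. Among all 34 members 13 were lower and 0 higher, against 10.7% of 6976 genes lower and 14.3% higher. The median difference of those 6976 genes was 0.0043. Tgtp1 stood farthest, at 58.2 and 30.5 CPM (log2 -0.93, -1.26 to -0.60), with the doubt about its split from Tgtp2. Gbp2 followed, at 111.6 and 64.2 CPM (log2 -0.80, -1.03 to -0.57), then Gbp4 at 143.1 and 89.3 CPM (log2 -0.68, -0.88 to -0.48). Intervals of these neighbours overlapped. Igtp was at 127.3 and 82.4 CPM (log2 -0.63), and Gbp3, Gbp5, Gbp7 and Gbp9 had intervals that held 0. Gates on summed marker UMIs were also tried, but none used the markers of cluster 0. Set against it were the 460 cells left over after the proliferating-like, naive- or memory-like and effector-like gates. Only 214 of these leftover cells were in cluster 0, and the GTPase difference among the 460 was -0.11. Cluster 0 also held memory-like Ccl5 cell markers at 15144 and 14902 CPM, the highest of any cluster, with Gzma among its leading genes. There 432 of 719 thinned obese cells had no type I marker UMI. The type I interferon markers were also lower in this cluster in the obese library, at 684.4 CPM for 7 genes against 906 CPM in the lean library. Their part in the GTPase result was not tested.

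In the effector-like cluster 3 the GTPase sum was 716 CPM in the lean and 477.2 CPM in the obese library (log2 -0.59, -0.66 to -0.52), and 14 of 14 genes were lower in the obese library, 10 of them past the fold. Of the members, 14 were lower past the fold and 0 higher, against 9.77% of 6973 genes lower and 16.2% higher. The median difference of those 6973 genes was 0.029. Here the IRG genes stood lower than the Gbp genes, at 331 and 199.3 CPM (log2 -0.73, -0.84 to -0.62) against 385 and 277.9 CPM (log2 -0.47, -0.56 to -0.38). The 2 intervals did not overlap. Tgtp2 was at 31.05 and 15.9 CPM (log2 -0.97), Iigp1 at 20.7 and 11.2 CPM (log2 -0.88), Igtp at 66.1 and 38.9 CPM (log2 -0.76) and Ifi47 at 145.8 and 89.6 CPM (log2 -0.70). Each of these 4 is an IRG gene. The split of Tgtp2 from Tgtp1 is uncertain, and Tgtp1 was at 10.6 and 9.09 CPM here (log2 -0.23, interval holding 0). Gbp4 was at 74.2 and 43.5 CPM (log2 -0.77). This cluster differed between libraries in other ways too, as its 10 effector markers summed to 5471 CPM in the lean and 2845 CPM in the obese library, and its type I interferon markers to 207.2 and 112.4 CPM. The median mitochondrial share per cell was 1.71% and 2.56%, and the median depth 11138 and 13973.5 UMIs. Their part in the result was not tested. Gated by marker UMIs, a wider set of 1957 cells that held 604 of the cluster gave -0.14.

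In the proliferating-like cluster 1 the GTPase sum was the lowest in both libraries, at 516.4 CPM in the lean and 431 CPM in the obese library (log2 -0.26, -0.31 to -0.21; -0.17 with thinned cells). Here 12 of 13 GTPases were lower and 5 were past the fold, with Gbp9 at 14.8 and 16.8 CPM (log2 0.18, interval holding 0). Of the members 7 were lower past the fold and 0 higher, against 5.87% of 6911 genes lower and 8.41% higher. The median difference of those 6911 genes was 0.017. In cluster 2, the naive- or memory-like cells, the GTPase sum was 654.8 and 540.7 CPM (log2 -0.28, -0.36 to -0.19). There 13 of 14 GTPases were lower and 7, all of them Gbp genes, were past the fold, among them Gbp8 at 42.2 and 26.5 CPM (log2 -0.67). Only 4 of the 14 intervals lay below 0, and of the 7 genes Gbp2, Gbp3, Gbp5 and Gbp6 had intervals that held 0. Of the members 11 were lower past the fold and 0 higher, against 11.8% of 6328 genes lower and 13.4% higher. The median difference of those 6328 genes was -0.0033. The IRG genes were closer together in this cluster, with Irgm1 at 62.1 and 61.9 CPM (log2 -0.01) and Iigp1 at 18.6 and 22.2 CPM (log2 0.26, interval holding 0).

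**Figure D3:**
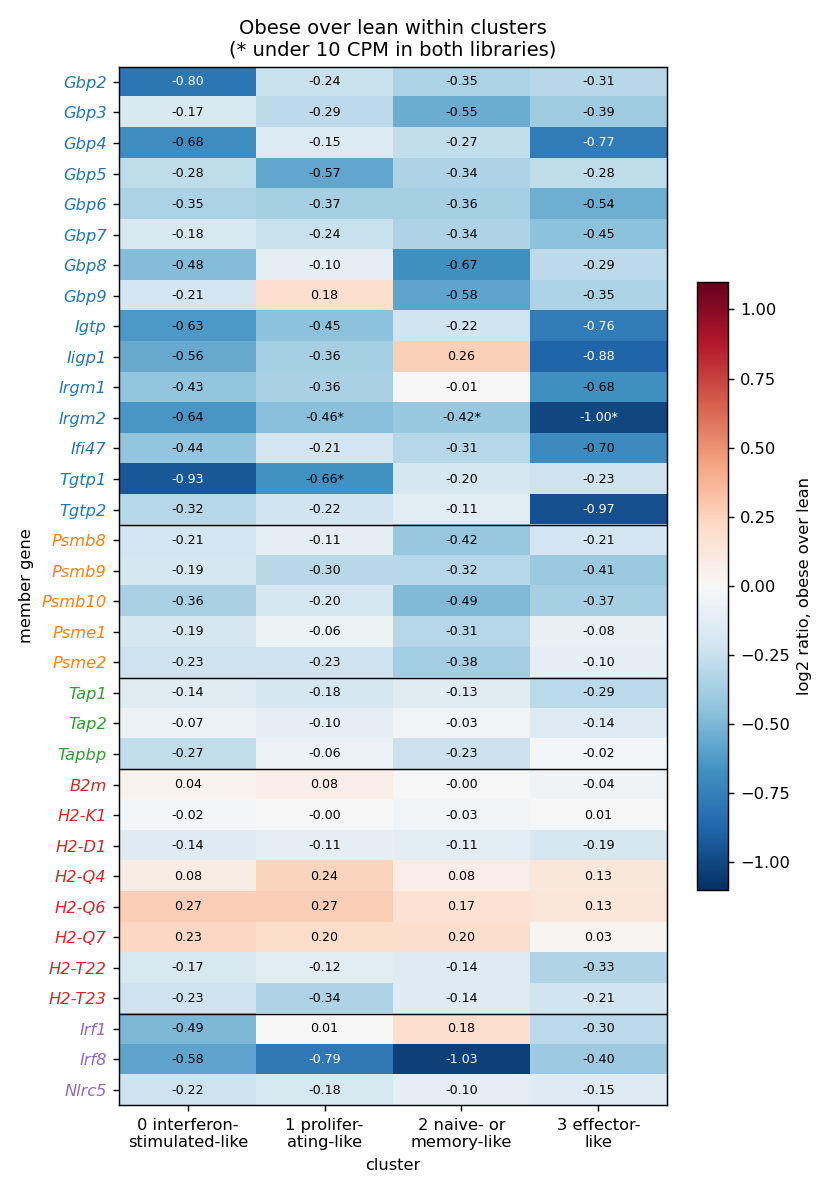
Log2 of obese over lean for the 34 genes (rows) in clusters 0 to 3 (columns), blue where lower and red where higher in the obese library; an asterisk marks genes under 10 CPM in both libraries. The GTPase rows are blue except Iigp1 in cluster 2 (0.26) and Gbp9 in cluster 1 (0.18), while H2-Q4, H2-Q6 and H2-Q7 are red in each column.

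The same GTPase UMIs were also counted cell by cell, which describes their spread over cells and is not separate support for the difference. With every cell thinned to 2000 UMIs, leaving out 126 lean and 112 obese cells that were shallower, a cell of cluster 3 held a mean of 1.53 GTPase UMIs in the lean and 0.960 in the obese library. Cells with no GTPase UMI made up 28.4% of 620 lean cells (24.9 to 32.1%, exact binomial) and 44.4% of 302 obese cells (38.7 to 50.2%), and without thinning 2.10% and 2.32%. The intervals of the thinned shares did not overlap, but they take the cells of 1 library as units. They do not cover differences between mice or library preparations. In cluster 0 the means were 2.90 and 2.15 UMIs, and cells with none made up 18.7% and 22.8%, with intervals that overlapped (7.14% and 2.07% without thinning, in an obese cluster that was deeper per cell). In cluster 1 the means were 1.08 and 0.957, and in cluster 2 they were 1.37 and 1.16.

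**Figure D4:**
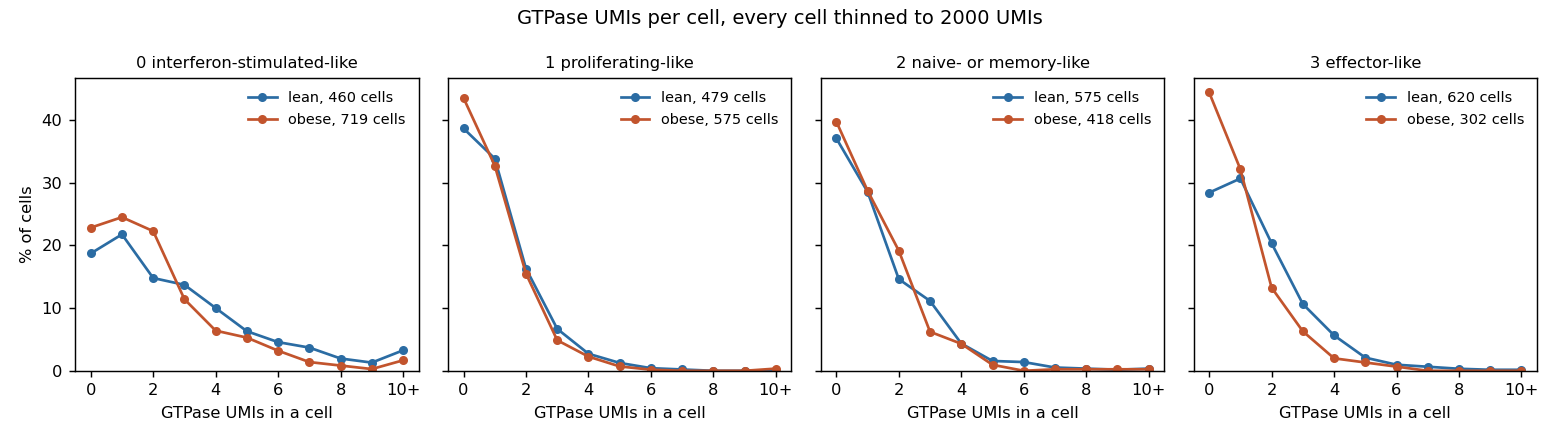
Share of cells (vertical axis, %) by the number of GTPase UMIs in the cell (horizontal axis, 10 or more pooled) in clusters 0 to 3, with every cell thinned to 2000 UMIs; lean in blue, obese in orange. In cluster 3 cells with no GTPase UMI made up 28.4% of lean and 44.4% of obese cells.

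Within a cluster, GTPase levels were higher in cells that also had a UMI of a type I interferon marker. In cluster 0 of the lean library the GTPase sum was 1989 CPM in the 228 thinned cells with such a UMI and 922.4 CPM in the 232 without, and in the obese library it was 1573 and 745.4 CPM. In cluster 3 it was 1225 and 639.1 CPM in the lean library. In the obese library it was 540 CPM (405.7 to 704.6) in 50 cells and 468.2 CPM (410.4 to 532) in 252 cells, which overlapped. Cells of 1 library share that library, so these values describe it. The split by a UMI of Ifng itself had no single direction. Lean cluster 3 cells with and without it stood at 752.7 and 778 CPM. Obese cluster 3 cells with Ifng stood at 539.2 CPM (463.1 to 624.2) and those without at 408.1 CPM (335.7 to 491.4). In cluster 2 those with it were lower, at 554.7 and 701.6 CPM in the lean and 423.1 and 597.6 CPM in the obese library, with intervals that overlapped.

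The immunoproteasome replaces the catalytic subunits of the standard proteasome by Psmb8 (Lmp7), Psmb9 (Lmp2) and Psmb10 (Mecl-1), and the PA28 cap of Psme1 and Psme2 speeds peptide release. These 5 genes summed to 3066 CPM in the lean and 2740.2 CPM in the obese library (log2 -0.16, -0.18 to -0.15). All 5 were lower in the obese library with intervals below 0, again without a share over all genes for such intervals, and 0 were past the fold. Psmb9 (chr17:34181987-34187764) was at 469.9 and 386.0 CPM (log2 -0.28, -0.32 to -0.25) and Psmb10 (chr8:105935735-105938444) at 268.6 and 230.2 CPM (log2 -0.22, -0.27 to -0.17). Psmb8 (chr17:34197721-34201454) was at 1179 and 1074 CPM (log2 -0.13, -0.16 to -0.11). Psme1 was at 679.0 and 641.1 CPM (log2 -0.08) and Psme2 at 469.5 and 408.9 CPM (log2 -0.20), the latter with 62.3% of its end shared with Psme2b.

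By cluster, the order of the groups changed. The immunoproteasome sum differed most in the naive- or memory-like cluster 2, from 2298 to 1766 CPM (log2 -0.38, -0.43 to -0.33), where it also had its lowest level among clusters 0 to 3. There Psmb10 was at 268.6 and 191.4 CPM (log2 -0.49), Psmb8 at 790.5 and 590.6 CPM (log2 -0.42) and Psme2 at 350.2 and 268.6 CPM (log2 -0.38), each past the fold. The cluster 2 interval lay below those of clusters 0 (log2 -0.22), 1 (log2 -0.15) and 3 (log2 -0.21). In cluster 3, Psmb9 was at 548.7 and 413.4 CPM (log2 -0.41) and Psmb10 at 263.2 and 203.9 CPM (log2 -0.37). In the shallow cluster 4 the sum went the other way, from 1328 to 1555 CPM (log2 0.23, 0.11 to 0.34). In the leftover gated cells set against cluster 0 the difference was -0.10.

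Each inducible subunit was then set against the standard subunit whose place it takes, as a ratio of UMIs with no correction for length or capture. Psmb9 over Psmb6 was 2.17 in the lean and 1.84 in the obese library (log2 -0.24, -0.30 to -0.17), and Psmb10 over Psmb7 was 2.73 and 2.24 (log2 -0.28, -0.37 to -0.19). Psmb8 over Psmb5 was 5.29 and 5.17 (log2 -0.03, -0.09 to 0.03). The Psmb8 interval held 0 and the other intervals did not, but with cells thinned the Psmb8 pair differed by -0.17 and the Psmb10 pair by -0.19. In cluster 3 the ratios differed by -0.40 (-0.53 to -0.26) for Psmb9, -0.53 (-0.72 to -0.34) for Psmb10 and -0.14 (-0.26 to -0.02) for Psmb8. In cluster 0 the Psmb9 pair (2.97 and 2.90) and the Psmb8 pair (9.23 and 9.57) had intervals that held 0, and the Psmb10 pair was 6.09 and 4.64.

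Tap1 and Tap2 form the pump that moves peptides into the endoplasmic reticulum, and Tapbp (tapasin) bridges it to class I molecules. The 3 genes summed to 440.0 CPM in the lean and 405.3 CPM in the obese library (log2 -0.12, -0.15 to -0.08), each lower in the obese library and 0 past the fold. Tap1 (chr17:34187553-34197225) was at 161.4 and 141.8 CPM (log2 -0.19, -0.25 to -0.12), Tap2 (chr17:34203527-34216321) at 134.5 and 128.3 CPM (log2 -0.07) and Tapbp (chr17:33915899-33929292) at 144.1 and 135.2 CPM (log2 -0.09). Across clusters 0 to 3 the sum differed by -0.16, -0.12, -0.15 and -0.16. These values were close to each other, and each interval overlapped the rest. The cluster 3 value was -0.41 with thinned cells and -0.062 gated by marker UMIs. The leftover gated cells set against cluster 0 gave -0.042.

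**Figure D5:**
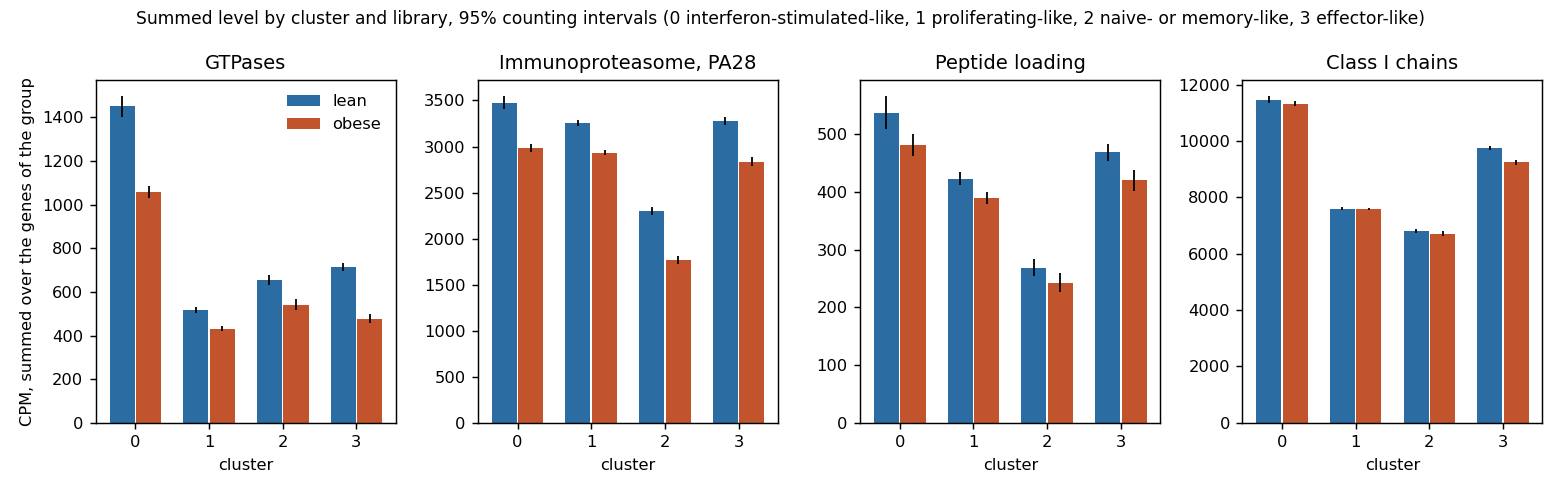
Summed CPM (vertical axes, each from 0) of the GTPases, the immunoproteasome with PA28, the peptide loading genes and the class I chains in clusters 0 to 3, lean in blue and obese in orange, with 95% counting intervals. The GTPase bars are lower in the obese library in each cluster, from 716 to 477.2 CPM in cluster 3, while the class I bars are nearly level.

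The class I chains, which display peptides at the cell surface, summed to 8515 CPM in the lean and 8525.5 CPM in the obese library (log2 0.00, -0.01 to 0.01), with 3 genes lower, 5 higher and 0 past the fold. The sum turned to -0.04 with a TMM scaling of the libraries and to -0.06 over all deposited cells. The near level sum was made of genes that differed in opposite directions. The Qa-2 genes H2-Q6 (chr17:35424850-35430055) at 185.6 and 225.6 CPM (log2 0.28, 0.23 to 0.33) and H2-Q7 (chr17:35439155-35443773) at 702.4 and 833.5 CPM (log2 0.25, 0.22 to 0.27) were higher in the obese library. H2-Q4 (chr17:35379617-35385290) was also higher, at 260.8 and 304.0 CPM (log2 0.22, 0.18 to 0.27). Qa-2 is a nonclassical class I family at the Q end of the locus. Words at the ends of class I genes also occur in other genes, 38.0% of them for H2-Q6, 9.86% for H2-Q7, 24.7% for H2-Q4 and 30.2% for H2-T23. H2-Q6 and H2-Q7 summed gave 0.25 (0.23 to 0.28). H2-T23 (Qa-1, the ligand of the CD94-NKG2A receptor; chr17:36029773-36032855) was lower, at 482.0 and 399.7 CPM (log2 -0.27, -0.31 to -0.23), as were H2-T22 at 194.5 and 175.4 CPM (log2 -0.15, with 51.2% of its end shared with H2-T10) and H2-D1 at 2485 and 2309 CPM (log2 -0.11, -0.12 to -0.09). The classical gene H2-K1 was at 2102 and 2135 CPM (log2 0.02) and the light chain gene B2m (chr2:122147686-122153083) at 2103 and 2143 CPM (log2 0.03). Both turned below 0, to -0.02, with TMM scaling, and to -0.03 and -0.05 over all deposited cells.

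The opposite directions were seen within clusters. H2-Q4, H2-Q6 and H2-Q7 were higher in the obese library in each of clusters 0 to 3. Values ran from 0.03 (H2-Q7 in cluster 3, interval holding 0) to 0.27 (H2-Q6 in clusters 0 and 1). The H2-Q4 intervals in clusters 0 and 2 also held 0. H2-D1, H2-T22 and H2-T23 were lower in each of these clusters, with the H2-T22 interval in cluster 2 holding 0. H2-T23 was past the fold in cluster 1 (log2 -0.34) and H2-T22 in cluster 3 (log2 -0.33). The class I sum differed by -0.02, 0.00, -0.02 and -0.08 in clusters 0 to 3, and only the cluster 3 interval (-0.09 to -0.06) lay off 0. Gated by marker UMIs the values were 0.14 in the leftover cells set against cluster 0 and 0.056 for cluster 3. Its level was highest in cluster 0 (11459 and 11322 CPM) and lowest in cluster 2 (6813 and 6700.4 CPM).

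Irf8, a transcription factor of dendritic cells and macrophages that activated CD8+ T cells also express, had the largest difference of the 33 members counted. It was at 178.2 CPM in the lean and 110.2 CPM in the obese library (log2 -0.69, -0.76 to -0.63; chr8:120736358-120756694). It was lower in the obese library in each of the 6 clusters. In cluster 1 it was at 223.0 and 129.2 CPM (log2 -0.79), in cluster 3 at 217.2 and 164.4 CPM (log2 -0.40), in cluster 2 at 24.98 and 12.3 CPM (log2 -1.03) and in cluster 0 at 35.4 and 23.6 CPM (log2 -0.58). Its pattern across clusters was unlike that of the GTPases, with its high levels in clusters 1 and 3 and not in cluster 0. Cluster 5, the dendritic-like cells, held it at 1650 and 897 CPM, and without that cluster the overall difference was -0.76 (171.8 and 101.5 CPM). In thinned cells 32.1% of lean and 20.2% of obese cluster 1 cells had an Irf8 UMI (87.5% and 71.0% unthinned).

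Irf1, which binds the ISRE core, was at 234.8 and 218.6 CPM over all cells (log2 -0.10, -0.15 to -0.05; chr11:53770014-53778374), and it did not go one way in every cluster. It was lower in the obese library in cluster 0, at 430.4 and 305.6 CPM (log2 -0.49, -0.61 to -0.38), and in cluster 3 (log2 -0.30). It was higher in cluster 2, at 359 and 407 CPM (log2 0.18, 0.08 to 0.28), and level in cluster 1 (log2 0.01). In cluster 2, 13 of 14 GTPases were lower, 4 of them with an interval below 0. Nlrc5, the transactivator of class I genes (chr8:94434356-94527272), was at 62.6 and 56.0 CPM (log2 -0.16, -0.26 to -0.06) and was lower in each of clusters 0 to 3, with intervals holding 0 except in cluster 1.

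The rest of the interferon gamma pathway did not stand on one side. The 7 signalling genes summed to 767.7 and 713.3 CPM (log2 -0.11, -0.13 to -0.08), with 4 lower and 3 higher in the obese library. Their sum differed by -0.19, -0.05, -0.13 and -0.25 in clusters 0 to 3, with intervals below 0. Single genes ranged from -0.48 to 0.28, the latter being the kinase gene Jak2 at 28.2 and 34.2 CPM. The brakes Socs1 and Socs3, which block the kinases, were higher past the fold in the obese library, at 69.6 and 91.6 CPM (log2 0.40) and at 45.8 and 71.0 CPM (log2 0.63), and the phosphatase Ptpn2 was at 46.0 and 52.4 CPM (log2 0.19). The ligand Ifng was at 579.6 and 525.3 CPM (log2 -0.14), with 0.31 in cluster 0 and -0.33 in cluster 3. The receptor chain Ifngr1 was at 281.3 and 271.2 CPM (log2 -0.05), with -0.36 in cluster 0 and -0.34 in cluster 3. In each of clusters 1 and 2, 1 of these 2 genes was lower and 1 higher.

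Other interferon gamma targets were mixed over all cells. In sum they were lower in the obese library within each of clusters 0 to 3 (log2 -0.20, -0.25, -0.02 and -0.09). The cluster 2 interval held 0. Singly the genes were mixed there too, with 5 of 8, 6 of 8, 5 of 7 and 4 of 9 lower. In cluster 3 the median of the single genes was 0.21, above 0 where the sum was below. Of 10 counted over all cells, 1 was lower past the fold (Parp14, log2 -0.35) and 6 were higher, beside 4.11% and 8.13% of all genes. The higher genes included the chemokine Cxcl10 at 29.0 and 59.7 CPM (log2 1.04) and the adhesion molecule Icam1 at 47.7 and 59.9 CPM (log2 0.33). The other 4 were the class II genes Cd74, H2-Aa, H2-Ab1 and H2-Eb1 (log2 0.85 to 1.93). Without the 9 lean and 21 obese cells of cluster 5, Cd74 was lower in the obese library, at 65.8 and 53.4 CPM (log2 -0.30). H2-Aa, H2-Ab1 and H2-Eb1 were also lower, but were then under 10 CPM in both libraries and not counted (H2-Aa at 6.57 and 4.37 CPM). Without cluster 5, Cxcl10 stayed at 1.06, and Icam1 was at 0.321, just short of the fold. Of 14 further class I pathway genes, only Calr was past the fold, at 243.3 and 311.4 CPM (log2 0.36), a share of 1 in 14 that is near the 8.13% of all genes that were higher.

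The type I interferon genes overlap the GTPases in what induces them, and were set beside them. Over all cells 8 of 18 were lower and 10 higher in the obese library, with a median of 0.08, against 14 of 14 lower and a median of -0.29 for the GTPases. In cluster 0, 18 of 21 were lower (median -0.37), and in cluster 3, 14 of 18 (median -0.52), beside GTPase medians of -0.44 and -0.49. In cluster 1, 4 of 9 were lower and 5 higher (median 0.11), and in cluster 2, 8 of 16 were lower and 8 higher, while the GTPases were lower in both. The type I sum went its own way. It was 2517 and 2862 CPM in cluster 3 (log2 0.19) and 1906 and 2242 CPM over all cells (log2 0.23). Most of it over all cells was Ifi27l2a, at 1079 and 1477 CPM. Cluster 0 held 9.15% of lean and 18.3% of obese UMIs. It had the highest type I sum of clusters 0 to 3, at 4061 and 3524 CPM. Values over all cells, those of the GTPases included, therefore also reflect the sizes of the clusters.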

How the data were processed

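Single-cell RNA was profiled in CD8+ TIL of 1 lean and 1 obese library. The deposited values are UMI counts per gene and cell barcode, which the authors made with Cell Ranger 6.0.2 against mm10, per the submitters' processing notes, and deposited with no normalization. By the filter that the study states, cells with more than 500 and fewer than 50000 UMIs and under 7.5% of UMIs from mt- genes were kept (2456 of 2697 lean and 2289 of 2623 obese barcodes). The study's stated cell numbers equal all deposited barcodes, so fewer cells were used here than there. Doublets were not called. Leaving out the highest 5% of UMI counts per library was tried instead.

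Cells were clustered with Seurat 5.3.0 in R 4.3.3 on 2000 variable genes without the members and related genes, at resolution 0.14, and named from markers. UMIs were summed per library and cluster in Python 3.11.15 with pandas 2.3.3, numpy 2.4.6 and scipy 1.17.1, and drawn with matplotlib 3.10.9. CPM carry exact Poisson intervals, ratios exact conditional binomial intervals and shares exact binomial intervals, all for counting error only. No p-value was computed. TMM factors came from edgeR 4.0.16. The interval code was tested on simulated data.

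All 34 members were named, with pathway genes from a list. Members and lists were chosen with earlier results of these data known. Gene positions came from GENCODE M21, which held 32158 of the 32285 identifiers, and upstream windows from RefSeq. Words of 60 bases in the last 500 bases of transcripts were compared to find shared ends. Alternatives were TMM scaling, a mean over cells, thinning to 2000 UMIs, all deposited cells, stricter filters (under 5% mt- UMIs and over 1000 UMIs), equal cluster weights, other clusterings and marker gates, summed paralogs and the most abundant gene left out. Gbp11, Mx1, Mx2 and Trgc1 were not analysed here, and some marker and pathway genes are not reported here.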

Additional observations from a re-analysis of the deposited data

Results flagged for a closer look

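B2m and Irf1 were the members whose counting intervals lay on opposite sides of 0 in different clusters among clusters 0 to 3. B2m, the class I light chain gene, was higher in the obese library in the proliferating-like cluster 1 (log2 0.076) and lower in the effector-like cluster 3 (log2 -0.043). Irf1 was higher in the obese library in the naive- or memory-like cluster 2 (log2 0.18) and lower in cluster 0 (log2 -0.49). With 1 library per diet, the difference between clusters was not tested for either gene. With the shallow cluster 4 included, Psmb10, Psme1 and Psme2 were also on both sides, below 0 in clusters 0 to 3 and above 0 in cluster 4 (log2 0.45, 0.25 and 0.32). With the 9 and 21 cells of cluster 5 Gbp6 was too, at 0 lean UMIs there. The outlying sample check needs 4 samples in a group and was not possible.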

How the results depend on the processing

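No group sum past the fold, and no all-cell value of a member past the fold, changed direction under the alternatives run. Class I sums, which were not past the fold, did change direction. Over all cells the class I sum turned negative with TMM scaling and over all deposited cells. Gated by marker UMIs it turned positive in the cells set against clusters 0, 2 and 3 and negative in those set against cluster 1. With 1 library per diet no library could be left out. No paired analysis was possible because each diet has a single library with no test. Over all cells, the log2 difference of the GTPases (-0.28) was -0.32 with TMM scaling, -0.25 as a mean over cells, -0.35 over all deposited cells and -0.40 with clusters weighted equally. The immunoproteasome (-0.16) gave -0.21 with TMM, -0.12 as a mean over cells, -0.14 thinned and -0.15 with equal weights. The loading genes (-0.12) gave -0.16 with TMM, -0.16 over all deposited cells and -0.18 with equal weights. The class I sum (0.0018) gave -0.043 with TMM, 0.046 as a mean over cells, 0.029 thinned, -0.059 over all deposited cells, 0.020 without the deepest cells and 0.044 without H2-D1. The count of members lower past the fold (5) was 10 with TMM, 3 as a mean over cells and 12 over all deposited cells. It was 10 with equal weights and 3 with paralogs summed. The share of all genes past the fold was not computed under these alternatives, so their counts have no background beside them.

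By cluster, gating on marker UMIs gave -0.11 for the GTPases, -0.10 for the immunoproteasome, -0.042 for loading and 0.14 for class I in the leftover cells set against cluster 0. It gave -0.35 (GTPases) and -0.032 (class I) in cluster 1, and -0.29 (immunoproteasome) and 0.020 (class I) in cluster 2. In cluster 3 it gave -0.14 (GTPases), -0.16 (immunoproteasome), -0.062 (loading) and 0.056 (class I). Clustering without type I interferon genes gave -0.38 for the GTPases in cluster 0. Resolution 0.8 gave -0.37 (GTPases), -0.26 (immunoproteasome) and 0.0057 (class I) in cluster 2, and -0.50 (GTPases) and -0.052 (loading) in cluster 3. Thinning gave -0.17 (GTPases), -0.13 (immunoproteasome) and 0.057 (class I) in cluster 1, and -0.67 (GTPases), -0.41 (loading) and -0.13 (class I) in cluster 3. Thinned, the Psmb8 over Psmb5 ratio differed by -0.17 and the Psmb10 over Psmb7 ratio by -0.19. The cause of these moves was not tested. Of the 16 sums of a group in clusters 0 to 3, 15 were below 0 as reported, and 13 to 15 under the alternatives.

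Of 374 values of single members under alternatives, 66 left the counting interval and 5 turned sign (B2m and H2-K1 in 2 settings each, and Gbp9, 0.11 thinned). Leaving out clusters 4 and 5, chosen after seeing the data, gave -0.76 for Irf8. Depth limits the scarce genes: Irgm2 was under 10 CPM over all cells, and 4 and 3 of the 8 Gbp intervals in clusters 0 and 2 lay below 0.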
